A study of Homo sapiens with 4 samples.

Results

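Lipocalin 2 (LCN2) and 9 further genes of epithelial defence and NF-kB signalling were followed across MG and non-MG cells of the HCT116 line, with and without 5-azacytidine. The other genes are SAA1, SAA2, C3, BIRC3, TNFAIP3, NFKBIA, IL32, IL1A and CCL20. These 10 genes were chosen by values of the same arrays, because LCN2 has the highest ratio of MG to non-MG cells under vehicle and is higher again after 5-azacytidine. All their ratios below are therefore descriptions. The array holds spots for 40909 genes or unnamed transcripts, of which 15707 had a probe well above background on all 4 arrays. Of the 10 genes, 4 did: LCN2, BIRC3, TNFAIP3 and NFKBIA. The 10 genes are read by 13 probes, of which 4 were well above background on every array.

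HCT116 is an established colon cancer cell line. The MG cells are those that passed repeatedly through a transwell membrane, and the non-MG cells are those that stayed on its upper side. Both are enriched populations of the line, not clones. Cells of each population were kept for 48 h in vehicle or in 5 µM 5-azacytidine, which blocks DNA methyltransferases, and a one-colour Agilent array was hybridised from 400 ng of RNA. There was 1 array for each of the 4 conditions, so no test between conditions was possible, and every comparison below is one of 2 arrays. Spot error, the spread between repeated spots of a probe, is given with the ratios of these genes. It covers spotting and scanning at most, and differences between cultures are not in it. Only the probes of NFKBIA and IL1A have repeated spots, 10 per array. The other probes have 1 spot per array, and their spot error was taken from other probes of like signal. The error that the image software gave was often larger. For 5-azacytidine in MG cells it was 0.20 for both LCN2 and BIRC3, against a spot error of 0.10. For the genes of the pathway lists further down the spot error was at most 0.45 in any comparison, with a median of 0.10.

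All arrays lay on 1 slide, with non-MG cells in row 1, MG cells in row 2, vehicle in column 3 and 5-azacytidine in column 4. Slide position and condition cannot be told apart. Between 21382 and 21881 of 50594 probes were well above background on each array, and no spot was saturated. Of 10 defining genes of colon epithelium, 8 were well above background on all arrays, and VIL1 and CEACAM5 were so on none. All 6 hepatocyte genes were below that level on every array. The same held for 6 of 10 leukocyte genes, among them PTPRC, MPO and ELANE. The summed level of the leukocyte list, relative to the 75th percentile of each array, was 1.54 and 1.27 with vehicle and 1.87 and 1.93 with 5-azacytidine in non-MG and MG cells. CD14 was 2.003-fold higher in MG cells and 1.83-fold higher in non-MG cells after 5-azacytidine. The macrophage gene CD68 was 1.77-fold and 1.23-fold higher, and the endothelial gene VWF, by its brighter probe, 1.63-fold and 1.29-fold. The other VWF probe and the other 4 endothelial genes were well above background on no array. Of 7 fibroblast genes 5 were so on none. COL1A1 was on all arrays, at log2 ratios of 0.25 and -0.12 after 5-azacytidine in MG and non-MG cells. THY1 was on the treated arrays alone, with signals of 16.9 and 13.4. KRT20, a keratin of differentiated colon epithelium, was 3.60-fold and 2.67-fold higher. The part of such transcripts in the results was not tested.

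NF-kB is a family of dimeric transcription factors that is held in the cytoplasm by inhibitor proteins of the I-kappa-B family. Cytokines and microbial products act through receptors, adaptors and kinases to destroy the inhibitor, and the freed dimers enter the nucleus. In the gut epithelium this pathway drives chemokines, acute phase proteins and antimicrobial proteins. It also drives its own inhibitors, NFKBIA and TNFAIP3, which end the signal. Lipocalin 2 is a secreted protein that binds bacterial siderophores and so withholds iron from bacteria. Its gene is known to respond to interleukin 1 and interleukin 17 through NF-kB and C/EBP factors.

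The promoters of 4 of the genes are shown because these genes cover the range of responses described below and because NF-kB binds a short, recognisable DNA motif. RefSeq held a window from 250 bases before to 50 bases after the transcription start for 7 of the 10 genes, in assembly GRCh38.p14. Windows of SAA1, SAA2 and C3 were not analysed here. Each window is read 5′ to 3′ in the direction of its gene, and capitals mark every match on either strand to GGGNNNNNCC, a loose form of the NF-kB (kappa-B) motif. Overlapping matches run together. The LCN2 window is chr9:128149203-128149502 on the plus strand, that of CCL20 is chr2:227813592-227813891 on the plus strand, that of BIRC3 is chr11:102317234-102317533 on the plus strand and that of NFKBIA is chr14:35404700-35404999 on the minus strand.
LCN2: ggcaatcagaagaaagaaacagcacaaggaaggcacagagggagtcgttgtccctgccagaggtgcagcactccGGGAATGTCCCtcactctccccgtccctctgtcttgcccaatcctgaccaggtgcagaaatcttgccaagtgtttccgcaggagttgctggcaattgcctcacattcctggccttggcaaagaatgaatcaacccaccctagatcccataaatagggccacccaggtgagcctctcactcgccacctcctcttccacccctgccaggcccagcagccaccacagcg
CCL20: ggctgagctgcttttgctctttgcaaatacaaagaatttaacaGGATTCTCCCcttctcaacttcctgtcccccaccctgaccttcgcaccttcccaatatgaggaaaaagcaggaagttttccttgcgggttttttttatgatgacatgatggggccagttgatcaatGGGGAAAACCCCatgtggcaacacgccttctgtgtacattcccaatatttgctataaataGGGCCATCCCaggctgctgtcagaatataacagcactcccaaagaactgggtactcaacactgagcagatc
BIRC3: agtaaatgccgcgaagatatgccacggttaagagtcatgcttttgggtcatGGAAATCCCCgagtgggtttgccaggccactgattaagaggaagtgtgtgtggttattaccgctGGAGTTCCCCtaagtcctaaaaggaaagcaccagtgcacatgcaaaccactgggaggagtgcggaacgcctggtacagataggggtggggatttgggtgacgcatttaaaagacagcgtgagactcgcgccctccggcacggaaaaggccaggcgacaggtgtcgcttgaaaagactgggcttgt
NFKBIA: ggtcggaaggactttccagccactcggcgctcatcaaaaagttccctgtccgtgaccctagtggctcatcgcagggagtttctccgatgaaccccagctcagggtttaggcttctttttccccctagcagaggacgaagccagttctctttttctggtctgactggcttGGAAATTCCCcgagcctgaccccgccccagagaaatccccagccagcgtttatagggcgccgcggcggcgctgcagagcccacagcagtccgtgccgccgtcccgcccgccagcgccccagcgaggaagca

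In the LCN2 window 2 overlapping matches begin at positions -176 and -175 from the transcription start. In BIRC3 the 2 matches begin at -199 and -135, and in NFKBIA the only match begins at -81. CCL20 has 5 matches, of which 3 overlap one another from position -81. A match is common: 58.7% of all 35114 promoter windows of 300 bases hold at least 1. Of the 7 genes, IL1A was the only one without a match in either of its windows. The C/EBP motif TTGCNNAA, found in 10.5% of all windows, occurred in LCN2 alone among the 7 genes, at -143. The AP-1 motif TGANTCA, found in 7.71% of all windows, occurred once in LCN2, at -52, and 2 times in each window of IL1A. The promoters differ in CG dinucleotides, the sites that DNA methyltransferases act on. The windows of CCL20 and LCN2 hold 3 and 6 CG, each window of IL32 holds 7 and each window of IL1A 8. The median over all windows is 14. BIRC3 holds 15, NFKBIA 22 and TNFAIP3 35. No methylation was measured on these arrays.

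LCN2 had a processed signal of 20.8 in non-MG cells with vehicle and 88.4 in non-MG cells with 5-azacytidine. It was 238 in MG cells with vehicle and 540.0 in MG cells with 5-azacytidine. The 4 values, each from 1 spot, thus stepped upwards in that order. Every neighbouring pair stood apart by more than the spot error, which here comes from other probes of like signal. After scaling each array to its 75th percentile, the log2 levels were -2.07, 0.23, 1.27 and 2.49 in the same order. LCN2 was 10.1-fold higher in MG than in non-MG cells with vehicle, a log2 ratio of 3.34 with a spot error of 0.21. This was rank 1 of the 15707 genes measured on all arrays, which is the property LCN2 was picked for. With 5-azacytidine on both sides the ratio was 2.25 with a spot error of 0.11, which is 4.76-fold and rank 12.

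**Figure D1:**
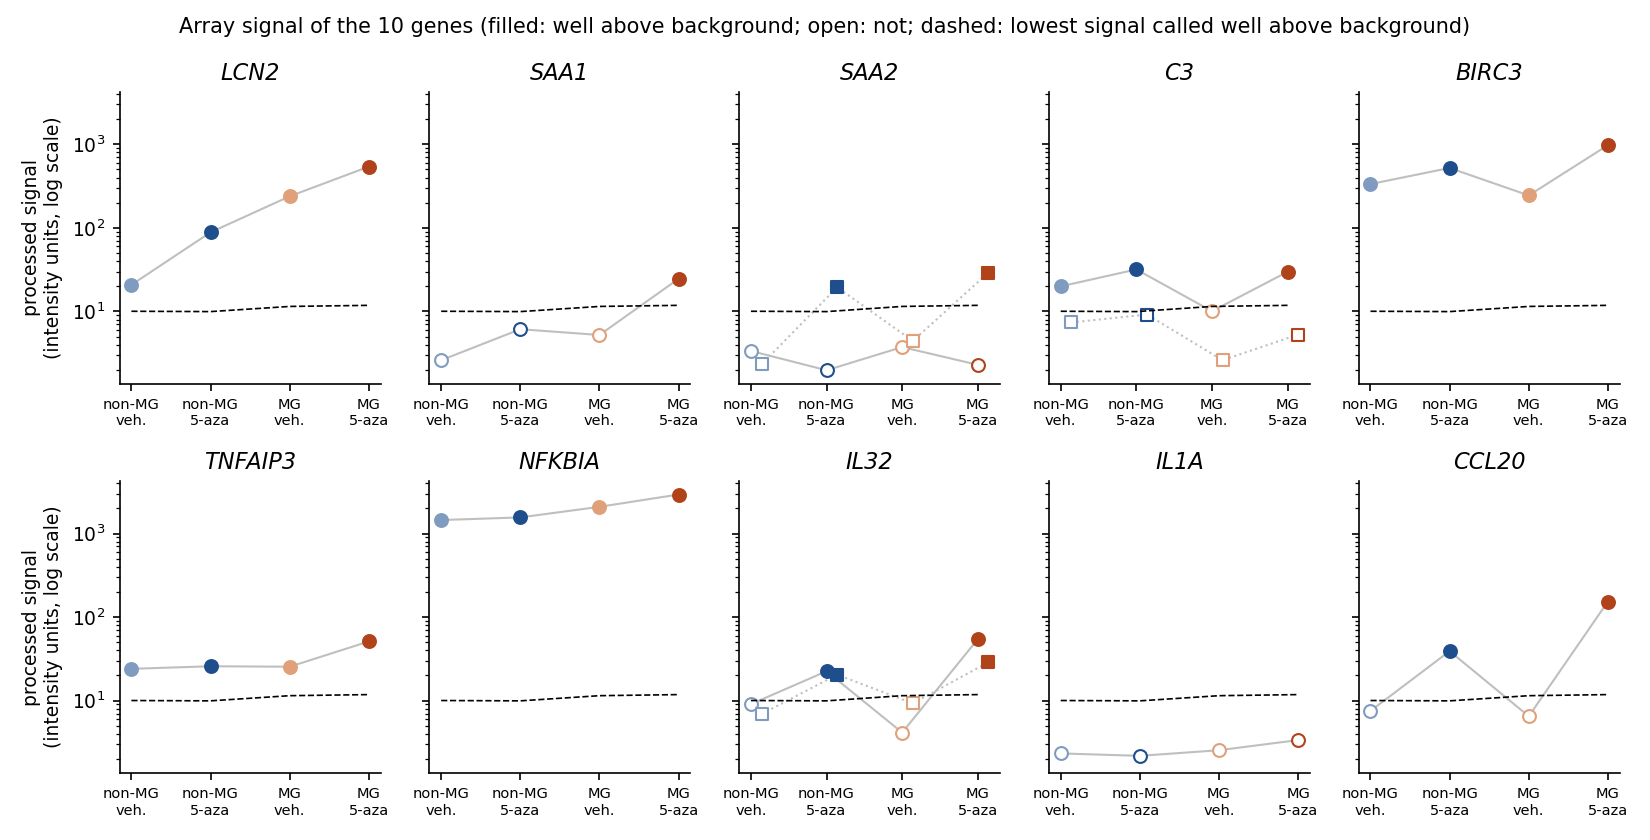
Processed signal of the 10 genes (log scale, intensity units) on the 4 arrays, with 1 point per probe and array. Filled points were well above background and open points were not, the dashed line joins the lowest signal so called on each array, and squares are the second probe of SAA2, C3 and IL32. LCN2 climbed from 20.8 to 540.0 over the 4 arrays, CCL20, IL32 and SAA2 were above background only with 5-azacytidine, and IL1A on no array.

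5-azacytidine was followed by more LCN2 signal in both populations. In non-MG cells the treated over vehicle log2 ratio was 2.30 with a spot error of 0.22, or 4.92-fold, which was rank 10 of all genes. In MG cells it was 1.21 with a spot error of 0.10, or 2.32-fold, which was rank 95. The treated over vehicle ratio was smaller in MG cells by 1.09 on the log2 scale, where the spot error of the difference is 0.24. Treated MG cells stood 23.5-fold above untreated non-MG cells. The vehicle level of non-MG cells, on which 2 of these ratios rest, was a dim one, at 20.8 against 10.04 for the lowest signal called well above background on that array. Another background correction, which adds 50 to every signal, left log2 ratios of 1.62 between untreated MG and non-MG cells and 1.01 and 1.09 for 5-azacytidine in non-MG and MG cells. The difference between the last pair was then 0.071 towards MG cells, so its direction was not kept with that correction.

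The cellular inhibitor of apoptosis BIRC3, a ubiquitin ligase that acts in NF-kB signalling and is also induced by it, followed a different order. Its signal was 334 in non-MG cells with vehicle, 520.4 in non-MG cells with 5-azacytidine, 244 in MG cells with vehicle and 976 in MG cells with 5-azacytidine. MG cells therefore had the lowest value with vehicle and the highest after treatment. The MG over non-MG log2 ratio was -0.63 with vehicle and 0.55 with 5-azacytidine, with spot errors of 0.10 and 0.09. 5-azacytidine was followed by a 4.09-fold higher signal in MG cells, rank 30 of all genes, and a 1.80-fold higher one in non-MG cells, rank 114. On the log2 scale these ratios were 2.03 and 0.85 and differed by 1.18, with a spot error of 0.13. The ratio of -0.63 lies close to the 1.5-fold threshold, at 0.58, and was -0.44 after median centring and -0.47 with the offset of 50.

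The feedback inhibitors NFKBIA and TNFAIP3 moved less. NFKBIA encodes I-kappa-B alpha, which holds NF-kB dimers in the cytoplasm, and was read by 10 spots per array. Its signal was 1449 and 1559 in non-MG cells with vehicle and 5-azacytidine, and 2087 and 2930 in MG cells. The lowest and the highest array were those of LCN2, with a far narrower range: 0.87 on the log2 scale for NFKBIA against 4.55 for LCN2. After scaling, the levels of treated non-MG and untreated MG cells lay closer together than their spot error, so the order of this pair is open. The SD between the spots of NFKBIA lay between 0.04 and 0.15 on the log2 scale. Its log2 ratios were 0.34 (vehicle) and 0.55 (5-azacytidine) for MG over non-MG cells, and 0.52 and 0.32 for 5-azacytidine in MG and non-MG cells. None passed 1.5-fold, and all 4 were larger than their spot errors of 0.02 to 0.06.

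TNFAIP3 encodes A20, an enzyme that edits ubiquitin chains and so shuts NF-kB signalling down. Its signal was 24.0, 25.8 and 25.5 in untreated non-MG, treated non-MG and untreated MG cells, and 51.1 in treated MG cells. The first 3 signals lay close together before scaling, and after it their log2 levels were -1.86, -1.54 and -1.95. The treated over vehicle log2 ratio of 0.31 in non-MG cells was barely larger than its spot error of 0.28. In MG cells 5-azacytidine was followed by a 2.05-fold higher signal, a log2 ratio of 1.04 with a spot error of 0.24. The MG over non-MG ratio was 0.63 with 5-azacytidine and -0.10 with vehicle, and the latter turned to 0.10 after median centring. TNFAIP3 is a dim probe, and with the offset of 50 its ratio in treated over untreated MG cells was 0.32. For treated MG over non-MG cells it was 0.13 with that offset, and 0.54 with the percentile taken over probes measured on all arrays. None of these passes 1.5-fold.

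The other 6 genes were below the detection level on at least 1 array, where only a lower limit of a fold can be given. Such a limit sets the bright signal against the dim signal itself, or against the lowest signal called well above background on that dim array if this is higher. These limits hold for the reported background correction, and values with the offset of 50, which compresses dim signals, are given beside them. CCL20, a chemokine that attracts immature dendritic cells and Th17 cells through CCR6, had signals of 39.1 and 154 in treated non-MG and MG cells. With vehicle its signals of 7.54 and 6.50 were not well above background. It was at least 4.52-fold higher after 5-azacytidine in non-MG cells and at least 13.7-fold higher in MG cells. With the offset these log2 ratios were 0.66 and 1.54, both past 1.5-fold. Between the treated arrays, where both were measured, it was 3.06-fold higher in MG cells, a log2 ratio of 1.61 with a spot error of 0.15. With vehicle no ratio between the cell types can be given.

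IL32, a cytokine without a mouse counterpart that is induced by TNF, was read by 2 probes. The first had signals of 22.5 and 54.5 in treated non-MG and MG cells, and the second 20.5 and 28.8. All 4 vehicle signals, from 4.15 to 9.28, were not well above background. After 5-azacytidine the first probe was at least 2.59-fold higher in non-MG cells and at least 4.86-fold in MG cells. For the second probe these limits were 2.36-fold and 2.57-fold. The probes disagreed on treated MG against treated non-MG cells, with log2 ratios of 0.92 and 0.14 and spot errors of 0.24 and 0.28. Both probes thus placed the treated arrays above the vehicle arrays, and a cell type difference was seen with 1 of them. With the offset the treated over vehicle log2 ratios of IL32 were 0.40 in non-MG and 0.67 in MG cells, and only the latter passes 1.5-fold.

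Serum amyloid A proteins are acute phase apolipoproteins that epithelia also make on microbial contact. SAA1 and SAA2 are near-identical genes, so that a probe named for one may also bind transcripts of the other, and their values are uncertain in this respect. The SAA1 probe was well above background in treated MG cells alone, with a signal of 24.6 against 2.61, 6.12 and 5.22 in untreated non-MG, treated non-MG and untreated MG cells. It was at least 2.19-fold higher than in untreated MG cells and at least 1.93-fold higher than in treated non-MG cells. One SAA2 probe had signals of 19.5 and 29.1 in treated non-MG and MG cells, and 2.32 and 4.44 with vehicle. It was at least 2.24-fold and at least 2.60-fold higher after treatment, and the treated arrays differed by 0.22 with a spot error of 0.28. The other SAA2 probe was well above background on no array. With the offset no ratio of either gene passed 1.5-fold. SAA1 in treated MG cells was then at log2 ratios of 0.22 over untreated MG and 0.04 over treated non-MG cells, and SAA2 after treatment at 0.54 in MG and 0.51 in non-MG cells.

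C3, the central component of complement, was the only other gene with a measured vehicle signal. Its brighter probe gave 19.9 and 31.8 in untreated and treated non-MG cells and 29.8 in treated MG cells, while untreated MG cells, at 10.1, were not well above background. C3 was thus at least 1.97-fold lower in MG than in non-MG cells with vehicle. After 5-azacytidine it was at least 2.66-fold higher in MG cells, and 1.85-fold higher in non-MG cells, a log2 ratio of 0.89 with a spot error of 0.28. Between treated MG and non-MG cells the ratio was -0.45 with a spot error of 0.28. With the offset C3 passed 1.5-fold nowhere, at log2 ratios of -0.33 between untreated MG and non-MG cells, and 0.33 and 0.28 after 5-azacytidine in MG and non-MG cells. The second C3 probe was well above background on no array. IL1A, which encodes the alarm cytokine interleukin 1 alpha, gave signals from 2.19 to 3.37 over 8 to 10 usable spots per array. None of its spots was well above background on any array, so no ratio is given.

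**Figure D2:**
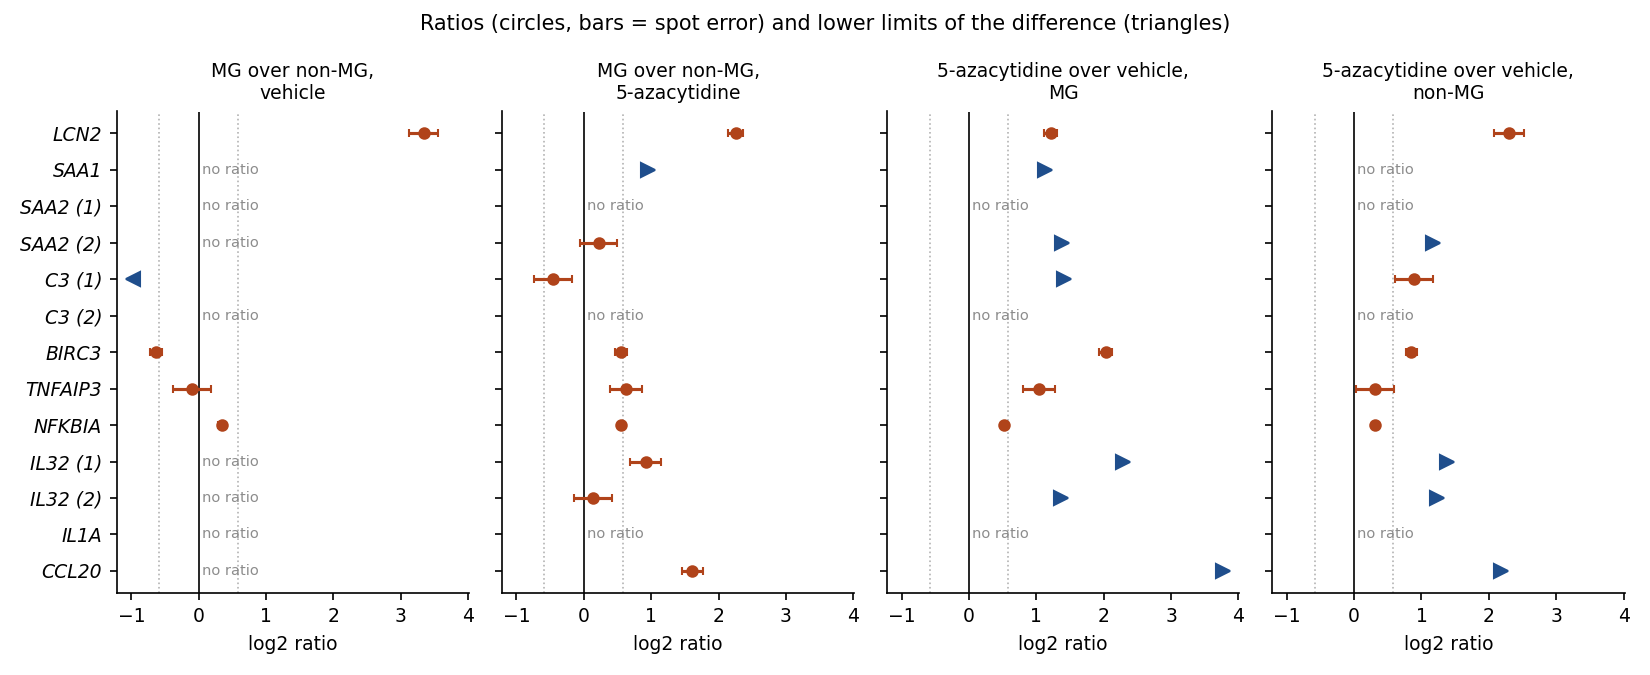
Log2 ratio of each member probe in the 4 comparisons, as circles with the spot error where both arrays were measured and as triangles at the lower limit where 1 was not. Dotted lines mark 1.5-fold, and numbers in brackets tell apart probes of one gene. In the 2 treated over vehicle comparisons every symbol lies to the right of 0, from 0.31 for TNFAIP3 in non-MG cells to the limit of 3.78 for CCL20 in MG cells, while with vehicle LCN2 at 3.34 is the only one past 1.5-fold towards MG cells.

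Counts over the genes follow from these values, and the choice of members fixed part of them. With vehicle, 1 of the 4 genes measured on all arrays was past 1.5-fold higher in MG cells (LCN2) and 1 lower (BIRC3). Among all genes so measured the shares were 5.68% and 8.24%. With 5-azacytidine 2 of 4 were higher (LCN2 and TNFAIP3) and none lower, against 5.74% and 7.33% of all genes. Treated over untreated MG cells had 3 of 4 higher (LCN2, BIRC3 and TNFAIP3) and none lower, against 3.02% and 2.10%. In non-MG cells 2 of 4 were higher (LCN2 and BIRC3) and none lower, against 1.90% and 1.68%. With 4 genes these shares are coarse.

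When genes with a lower limit were counted as well, 9 of the 10 genes entered the comparison of treated with untreated MG cells and 8 were past 1.5-fold higher, NFKBIA being the exception. In non-MG cells 8 entered and 6 were higher. Over all genes counted with limits 5.90% were higher in MG cells and 3.98% in non-MG cells. With the offset of 50 the counts among the 10 genes fell to 4 of 9 and 3 of 8. Among all 15707 genes measured on all arrays, those higher fell with that offset from 474 to 137 in MG cells. In non-MG cells they fell from 298 to 55. A gene that is detected on the treated array alone can only count as higher, so a count with limits leans that way by construction. Between untreated MG and non-MG cells 5 genes entered, of which 1 was higher and 2 were lower (BIRC3 and C3), against 7.26% and 9.73% of all genes. With 5-azacytidine 9 entered and 4 were higher (LCN2, SAA1, TNFAIP3 and CCL20), against 7.21%. The 2 treatment comparisons share no array, and neither do the 2 cell type comparisons, but each treatment comparison shares arrays with both cell type comparisons.

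**Figure D3:**
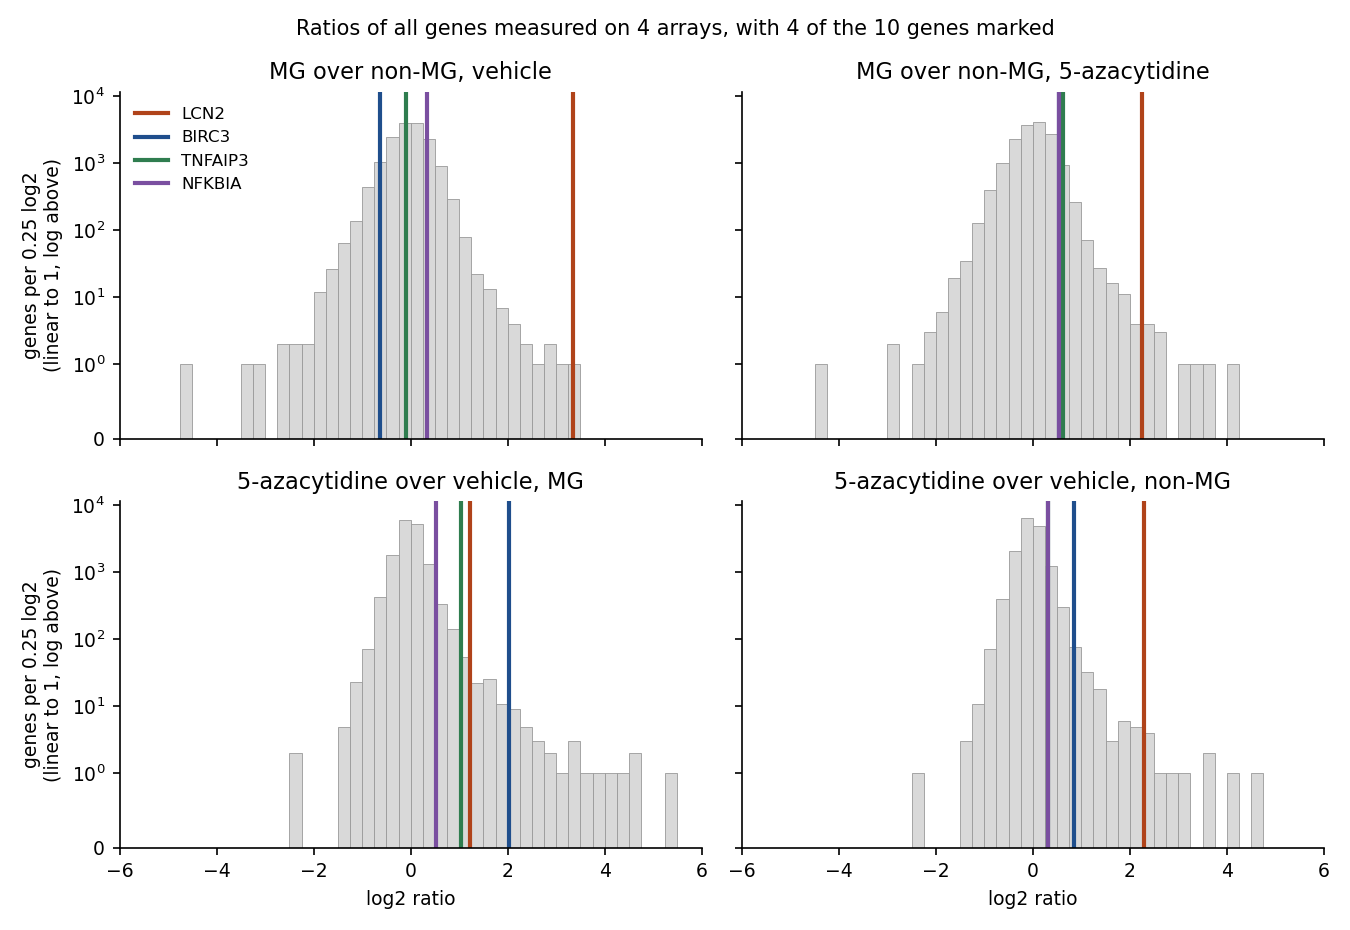
Number of genes per 0.25 of log2 ratio (axis linear to 1 and logarithmic above) among the 15707 genes measured on all arrays, with the ratios of LCN2, BIRC3, TNFAIP3 and NFKBIA as vertical lines. LCN2 lies at the right end with vehicle, at 3.34, and all 4 lines lie to the right of 0 after 5-azacytidine, where BIRC3 leads in MG cells at 2.03 and LCN2 in non-MG cells at 2.30.

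The NF-kB pathway itself was read through lists of genes by their role. All 5 DNA-binding subunits were measured on all arrays. Between untreated MG and non-MG cells their log2 ratios ran from -0.52 for NFKB2 to 0.42 for NFKB1, with RELA at -0.24, REL at -0.26 and RELB at -0.10. With 5-azacytidine NFKB1 was the only one past 1.5-fold, at 0.66. After 5-azacytidine the subunits lay between 0.05 and 0.38 in MG cells and between -0.23 and 0.04 in non-MG cells. Their medians of 0.23 and -0.04 compare with medians of -0.02 and -0.04 over all genes.

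The list of 12 inhibitors also holds nuclear I-kappa-B proteins and BCL3, so it is not one of inhibitors alone. Of its genes, 10 were measured on all arrays and TNIP3 was well above background on none. NFKBIZ, a nuclear I-kappa-B protein that co-activates LCN2 in other cells, was 0.86 higher on the log2 scale after 5-azacytidine in MG cells and 0.71 higher in non-MG cells. NFKBID, another nuclear member, was at 0.70 and 0.16. BCL3, which binds the p50 and p52 subunits, was lower in MG than in non-MG cells, at -0.85 with vehicle and -0.61 with 5-azacytidine. TNIP1, a partner of A20, was at -0.67 and -0.22, and NFKBIB at 0.19 and 0.64. NFKBIE, TNIP2 and OTULIN passed 1.5-fold in no comparison. After 5-azacytidine 3 of the 10 were past 1.5-fold higher in MG cells: NFKBIZ, NFKBID and TNFAIP3. In non-MG cells 1 was, NFKBIZ. Among all genes the shares were 3.02% and 1.90%. The list median was 0.40 in MG cells and 0.01 in non-MG cells. The cell type comparisons depend on the centring. As reported, 2 genes of the list were past 1.5-fold higher in treated MG than non-MG cells, and 5 after median centring. Over all 15707 genes these counts were 902 and 3005.

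Upstream, 27 of 29 kinases and adaptors were measured. Past 1.5-fold higher in MG cells were 2 with vehicle and 2 with 5-azacytidine, against 5.68% and 5.74% of all genes. After median centring these counts were 6 and 7. Over all 15707 genes the counts then rose as well, from 892 to 2127 with vehicle and from 902 to 3005 with 5-azacytidine. The paracaspase MALT1 was 1.48 higher in MG cells with vehicle and 0.94 higher with 5-azacytidine, and the interleukin 1 receptor kinase IRAK1 0.81 and 0.85. After 5-azacytidine BIRC3 and IRAK2, the latter at 0.61, were past 1.5-fold higher in MG cells. In non-MG cells BIRC3 was the only one. Of 19 ligands, 14 were well above background on no array, IL1B and IL17A among them. Measured on all arrays were 2, where 15707 of 40909 genes or unnamed transcripts were. TNF was well above background in treated MG cells alone, with a signal of 22.4 against 3.38, 8.96 and 4.09 in untreated non-MG, treated non-MG and untreated MG cells. The same held for LTB, which encodes lymphotoxin beta, with 16.0 against 6.10, 10.7 and 2.74. IL17C, an epithelial interleukin 17 cytokine, was so on both treated arrays, with 20.7 in treated against 4.05 in untreated MG cells. Of 28 receptors 18 were measured. The interleukin 1 receptor subunit IL1RAP was lower in MG cells, at -1.23 in both comparisons, and the interleukin 17 receptor subunit IL17RB 2.15-fold and 1.74-fold higher. TLR3, a sensor of double-stranded RNA, was at 0.12 with vehicle and 1.62 with 5-azacytidine.

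Of 32 NF-kB target genes outside the 10, 19 were measured on all arrays. The list shares NFKBIZ, BCL3, TNIP1, NFKBIE, RELB and NFKB2 with the lists above, so NFKBIZ is counted again here. After 5-azacytidine 3 were past 1.5-fold higher in MG cells and 2 in non-MG cells, and none was lower, against 3.02% and 1.90% higher among all genes. TNFAIP2 was higher in all 4 comparisons, with log2 ratios of 0.67 and 0.89 for MG over non-MG cells and 0.92 and 0.69 for 5-azacytidine in MG and non-MG cells. The growth factor CSF1 was at 0.83 and 0.48 after 5-azacytidine in MG and non-MG cells. TNFAIP8 was lower in MG cells, at -1.03 and -0.99. The list median was 0.24 in MG cells and -0.09 in non-MG cells, and 9 of the 32, PTGS2, IL6 and VCAM1 among them, were well above background on no array.

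**Figure D4:**
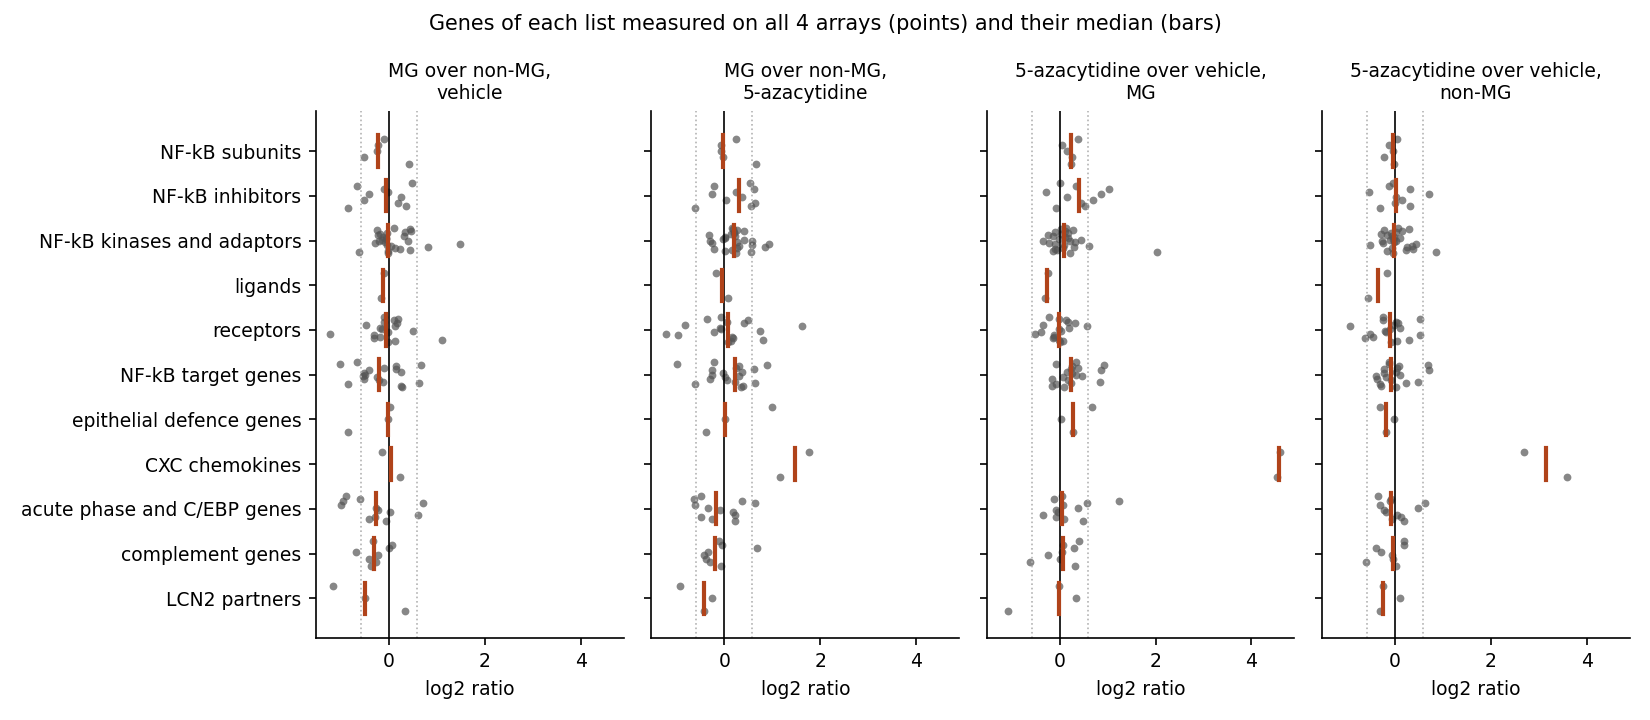
Log2 ratio of every gene of each list that was measured on all arrays (points) with the list median (bars) in the 4 comparisons. Dotted lines mark 1.5-fold. Most points lie between them, and the CXC chemokines CXCL1 and CXCL2 lie farthest to the right after 5-azacytidine, at 4.53 and 4.60 in MG cells.

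Of the other antimicrobial and barrier genes of epithelia, 30 were on the array. Of these, 23 were well above background on no array, including DEFB4A, CAMP, PIGR, S100A8 and NOS2. The share of all genes that were above background on none is not given here. Measured on all arrays were 3 of the 30, against 15707 of 40909 genes or unnamed transcripts. Of the 3 measured on all arrays, the protease inhibitor SLPI was 0.99 higher in MG than in non-MG cells with 5-azacytidine and 0.01 higher with vehicle, with a spot error of up to 0.38. The membrane mucin MUC1 was at -0.85 with vehicle. Among CXC chemokines, CXCL1 and CXCL2 were measured on all arrays. They were 4.53 and 4.60 higher on the log2 scale after 5-azacytidine in MG cells, and 3.60 and 2.69 higher in non-MG cells. CXCL8 was well above background on the treated arrays alone, with signals of 10.2 in non-MG and 38.6 in MG cells, as was CCL20.

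Of 21 acute phase and C/EBP genes, 12 were measured on all arrays. After 5-azacytidine 1 of the 12 was past 1.5-fold higher in each population, against 3.02% and 1.90% of all genes in MG and non-MG cells. These were SERPINA3, which encodes antichymotrypsin, at 1.23 in MG cells, and SERPINA1, which encodes antitrypsin, at 0.63 in non-MG cells. After median centring none was in non-MG cells. SERPINA3 was at -0.10 in non-MG cells, and its MG over non-MG ratio was -0.96 with vehicle and 0.37 with 5-azacytidine. With vehicle 4 of the 12 were past 1.5-fold lower in MG cells and 2 were higher, CEBPG and SERPINA1, against 8.24% and 5.68% of all genes. The lower ones included STAT3 and OSMR, of the interleukin 6 receptor pathway, at log2 ratios of -0.89 and -0.997. Of 21 complement genes other than C3, 8 were measured. The protease C1S was lower after 5-azacytidine, at -0.61 in MG cells and -0.60 in non-MG cells, and none was past 1.5-fold higher. The regulator CD55 was at -0.70 in untreated MG over non-MG cells.

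Genes for partners of lipocalin 2 were measured on all arrays. The candidate receptor SLC22A17 was lower in MG cells, with log2 ratios of -1.16 with vehicle and -0.93 with 5-azacytidine. The endocytic receptor LRP2 was at -1.07 after 5-azacytidine in MG cells and -0.32 in non-MG cells. MMP9, whose protein forms a complex with lipocalin 2, passed 1.5-fold in no comparison.

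The genes with the pattern nearest to LCN2 over the 4 arrays were NUPR1, SUSD2, MIA, ALPG and ANXA8L1. Likeness was the Euclidean distance between log2 levels centred on the mean of each gene, and it was 1.28 for NUPR1 and 1.53 for ANXA8L1. NUPR1, a chromatin-binding stress response protein, was 1.64 and 2.21 higher in MG than in non-MG cells with vehicle and 5-azacytidine. After 5-azacytidine it was 3.03-fold higher in MG cells and 2.04-fold higher in non-MG cells. The membrane protein SUSD2 had ratios of 1.96 and 1.57 for MG over non-MG cells and 0.79 and 1.19 for 5-azacytidine in MG and non-MG cells. MIA and ANXA8L1 owed their place to the cell type ratios, at 3.02 and 2.63 with vehicle, and were within 1.5-fold after 5-azacytidine. ALPG was 2.34 higher after 5-azacytidine in non-MG cells, close to the 2.30 of LCN2. ALPG and ANXA8L1 have near-identical copies elsewhere in the genome and their probes may read those too. None of the 5 lay within the spot error of LCN2 in every comparison, and with 4 arrays a near pattern is weakly defined.

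**Figure D5:**
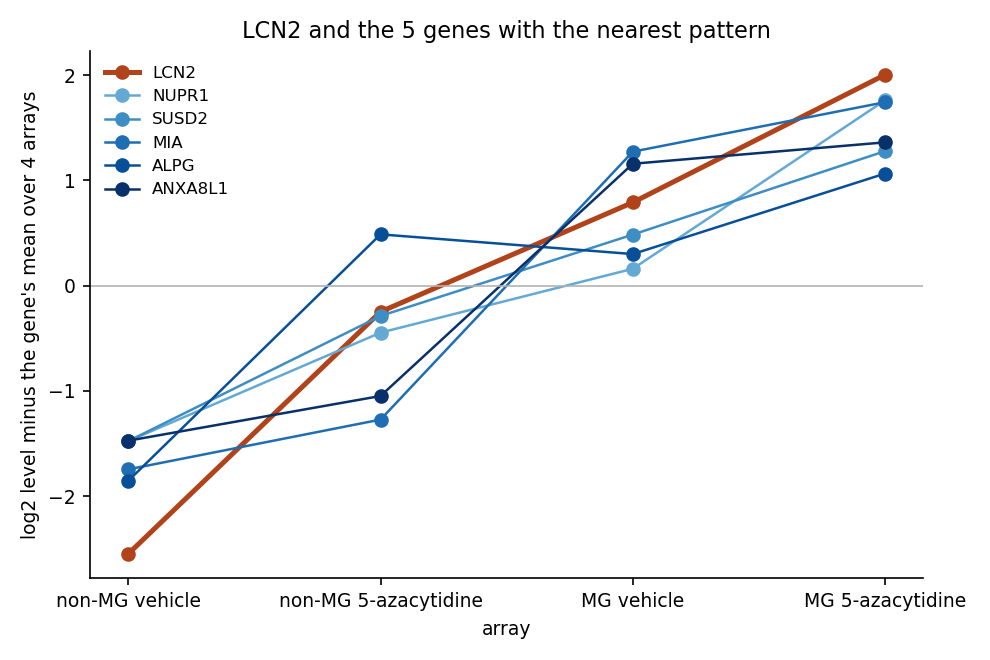
Log2 level minus the mean over the 4 arrays for LCN2 and the 5 genes with the smallest distance to it. LCN2 climbs from -2.07 to 2.49 before centring, and the other 5 climb less between their lowest and highest array.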

How the data were processed

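Gene expression was measured on 4 one-colour Agilent SurePrint G3 arrays, 1 per condition. Per the file headers, the authors deposited Agilent Feature Extraction 11.5.1.1 output, with a background-corrected intensity, raw median and background intensities and flags for each spot. The authors also deposited log2 values of 24189 probes, each centred on its median over the arrays, whose differences equalled those of the scanner values within 0.01 after a constant. The labels and the study's methods name different RNA kits.

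The log2 intensity minus the 75th percentile of its array was computed over non-control probes without outlier spots, and spots of a probe were averaged. Probes were named by unversioned RefSeq accession (GRCh38.p14), which named 30000 of 50594. The array design refers to hg19, so probe coordinates are not given. Gene values are means over probes well above background on all 4 arrays. Called means past 1.5-fold, without a test. Spot error was taken from probes with 10 spots each, as the median SD of log2 signal within a range of signal, and for NFKBIA as the SD of its own spots over the root of their number.

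The members and gene lists were chosen with earlier results of these data known. Genes named are all members, the NF-kB subunits and inhibitors, up to 4 genes of each other list past 1.5-fold, and 5 neighbours of LCN2. Any further name was picked from its values. The counting of calls was tested on simulated data. Alternatives were another background correction (limma 3.58.1, normexp, offset 50), quantile normalization (Python 3.11.15, pandas 2.3.3), other centring, filters, thresholds, the brightest probe and the deposited log2 table.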

Additional observations from a re-analysis of the deposited data

Results flagged for a closer look

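BIRC3 was lower in MG than in non-MG cells with vehicle, at -0.63 on the log2 scale, and higher with 5-azacytidine, at 0.55, so that the ratio turned by -1.18 (vehicle minus 5-azacytidine). It is listed because the same cell type comparison ran in opposite directions in untreated and treated cells. With 1 array per condition the difference was not tested.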

How the results depend on the processing

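Called ratios of LCN2, BIRC3 and TNFAIP3 kept their direction under 5 alternatives. These were normexp, quantile normalization, median centring, the percentile over probes measured on all arrays and the authors' values. Of 140 recomputed ratios and limits of the 9 genes with a value, 101 moved by less than the spot error and 39 by more. By less moved 7 of 31 with normexp, and 16 of 16 with the authors' values, which equal the scanner's after a constant and could barely differ. Of 93 past 1.5-fold, 13 no longer passed it, 11 of them with normexp, and 0 turned round. With normexp the difference of the 5-azacytidine ratio, MG minus non-MG cells, turned to 0.071 for LCN2 and was 0.13 for TNFAIP3 and 0.35 for NFKBIA, the last being 0.14 with the percentile over measured probes. With limits counted, normexp left 4 genes higher in MG and 3 in non-MG cells after 5-azacytidine, and 0 lower in untreated MG cells. With normexp the LCN2 ratios were 1.62 and 1.69 (MG over non-MG, vehicle and 5-azacytidine), 1.09 and 1.01 (5-azacytidine, MG and non-MG). This setting started from the raw spot median and changed the background model and the offset together. The part of each was not tested. Median centring moved the median of all genes by 0.20 and 0.26 between MG and non-MG cells (vehicle, 5-azacytidine), and by -0.04 and -0.10 for 5-azacytidine in MG and non-MG cells, and gave 2.51 for LCN2 in treated MG over non-MG cells. Under it 78.0% and 88.3% of calls in MG over non-MG cells were higher, against 40.8% and 43.9%, and 26.9% against 53.0% for 5-azacytidine in non-MG cells. With the percentile over probes measured on all arrays these shares were 26.8% in treated MG over non-MG cells and 72.5% for 5-azacytidine in non-MG cells, and with normexp they were 58.6%, 79.8%, 73.7% and 41.4% in the order of the ratios above, where 59.0% was the share for 5-azacytidine in MG cells otherwise. Among the members that each setting let in (4 as reported, 9 under the study's filter, 10 with no filter), those higher in untreated MG than non-MG cells numbered 3 under the study's filter and 2 with no filter, and those lower 2 under both filters and 0 with normexp, median centring or a 2-fold threshold. With limits counted, those lower numbered 1 with median centring and 0 at 2-fold. With 5-azacytidine the genes higher in MG cells numbered 4 with median centring, the study's filter, no filter, signals raised to the detection limit or a 1.4-fold threshold, and 1 with the percentile over probes measured on all arrays or at 2-fold. The gene lower with no filter numbered 1. With limits counted they were 7 with median centring or 1.4-fold, and 2 at 2-fold. For 5-azacytidine the genes higher were 8 in MG cells with the study's filter, no filter or signals raised to the detection limit. In non-MG cells they were 7 with the study's filter or no filter, 5 with raised signals and 1 at 2-fold. Over all genes, those past 1.5-fold higher ranged from 465 to 3425, 577 to 3303, 137 to 4180 and 55 to 4502 in the 4 comparisons, in the order of the report. Of the 5 neighbours of LCN2, 4 or 5 were the same under median centring and quantile normalization. Of the pathway lists, median centring also moved the receptors higher in MG cells from 1 to 2 with vehicle and 3 to 5 with 5-azacytidine, and the target genes from 3 to 6 with 5-azacytidine. Over all 15707 genes those higher in MG cells went from 892 to 2127 (vehicle) and 902 to 3005 (5-azacytidine). Ratios of dim probes without a limit at the detection level were an alternative chosen after seeing the data. With 1 array per condition and 1 slide, no paired analysis, dropped replicate or slide block was possible. Signal over background limits 6 of the 10 genes.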
